A study of Bos taurus with 2 samples.

Results

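The receptors that hold or carry antibodies in the bovine udder were followed here as a group of 9 genes: PIGR, JCHAIN and FCGRT, which serve the transport of immunoglobulins, and FCGR1A, FCGR2B, FCGR3A, FCER1A, FCER1G and FCAR, which encode Fc receptors of immune cells or their subunits. The members were found by name, as the probes for genes on both arrays whose gene name, or the current symbol of their RefSeq entry, was one of these 9 (JCHAIN was also accepted under its older name IGJ). The rule gave 20 probes for 9 genes, out of 12473 genes that were measured on both arrays and 17376 genes named on the array. All 20 probes lay above background on both arrays and none had a saturated pixel, so no member was lost to a filter.

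The samples were mammary tissue of adult Chinese Holstein cows in late lactation, 1 array from tissue with mastitis and 1 array from tissue without mastitis, called normal. Clinical mastitis is an inflammation of the udder, judged in the study by milk cell counts, the California mastitis test and stained sections. Antibiotics were used in the cows with mastitis and not in those without, and the effects of disease and treatment therefore cannot be told apart. Recombinant bovine somatotropin was given to no cow of either group. The study used 3 cows per group, and the cow behind each array is not named in the sources used here.

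Antibodies reach bovine milk by separate receptor-borne routes. The polymeric immunoglobulin receptor, encoded by PIGR, takes up IgA and IgM that contain the J chain (JCHAIN) at the base of the milk-secreting cell, carries them across and releases them into milk with a piece of itself attached. The neonatal Fc receptor, whose heavy chain is FCGRT and whose light chain is beta-2-microglobulin (B2M), binds IgG inside the cell and either recycles it or carries it across. On immune cells, Fc receptors read antibody that has bound a target: FCGR1A and FCGR3A activate the cell through the common gamma chain FCER1G, FCGR2B inhibits it, FCER1A binds IgE on mast cells and basophils, and FCAR binds IgA on cells of the myeloid line.

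The deposited value of a spot is its fluorescence less 1 constant per array, called net signal below, in the arbitrary units of the scanner. A spot counted as above background when the scanner software had found it and its net signal exceeded the mean of 153 negative control spots by over 2.6 SD, that mean being 0.01 for mastitis and 1.95 for normal. This required a net signal over 7.10 for the mastitis array and over 8.74 for the normal array. Each array was then divided by its 75th percentile over gene probes, 210 for the mastitis array and 128 for the normal array, and the ratios below are log2 ratios of these scaled signals, mastitis over normal. Genes are given as the mean of their probes with the SD, which is technical. The SD of probes within a gene, pooled over all genes, was 0.44. With 1 array per condition no difference has a replicate check across cows, no p-value is given, and 2-fold is used as a mark of size only.

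PIGR, FCGR2B, FCER1A and FCAR were lower by 2-fold or more in mastitis tissue, whereas FCGRT, FCGR1A, FCGR3A, JCHAIN and FCER1G lay within 2-fold, all with a ratio above 0. Of the 9 members, 4 (44.4%) were thus lower by 2-fold or more and 0 higher, where 9.12% of all measured genes were lower and 2.29% higher by that much. The median ratio of the members was 0.04 and that of all measured genes -0.15. The group showed no common direction, and its genes spread over a range of -1.90 to 0.81. In whole tissue, fewer cells of a type and less RNA per cell cannot be told apart.

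**Figure D1:**
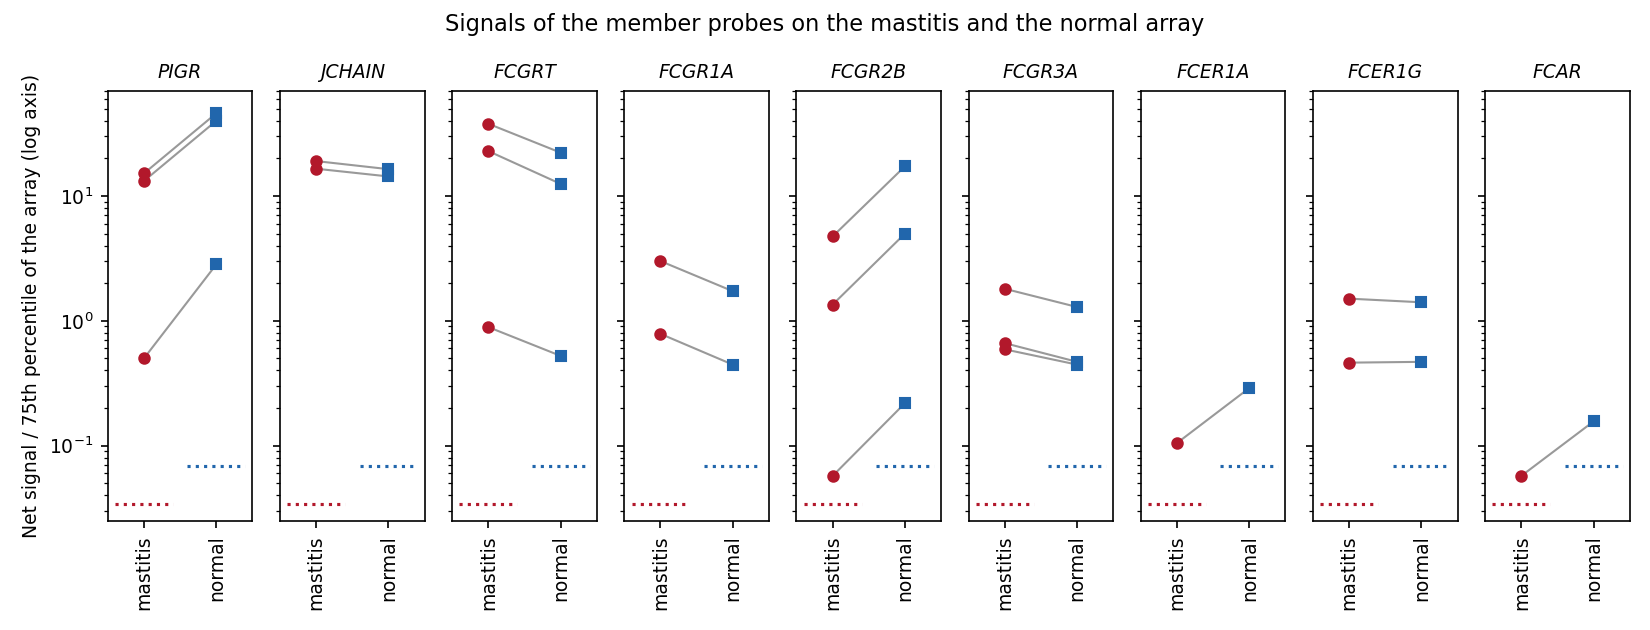
Scaled net signal of each member probe on the mastitis array (red circles) and the normal array (blue squares), on a log axis in units of the 75th percentile of each array, with a line joining the same probe and dotted marks at the background limit of each array. The lines of PIGR, FCGR2B, FCER1A and FCAR climb towards the normal array, those of FCGRT, FCGR1A and FCGR3A descend, and those of JCHAIN and FCER1G are nearly level.

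PIGR was lower in mastitis tissue with each of its 3 probes. The brightest probe gave a net signal of 3184 in mastitis tissue and 5883 in normal tissue, which is 15.2 for mastitis and 46.0 for normal after scaling and a log2 ratio of -1.60. A probe of nearly the same brightness gave 2769 in mastitis tissue and 5124 in normal tissue, also with a ratio of -1.60. The dimmest probe gave 105 in mastitis tissue and 362 in normal tissue, with a ratio of -2.50. The mean was -1.90 ± 0.52 (SD, n = 3 probes), a signal 3.73-fold lower, and 2.20% of all measured genes had a ratio as low or lower. The SD came from the dimmest probe, since the other two agreed within 0.01.

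Milk-secreting cells, the site of PIGR in the udder, were also followed by markers. Of 10 markers, 9 were measured on both arrays. Of these 9, 4 were lower by 2-fold or more in mastitis tissue and 0 higher, against 9.12% lower and 2.29% higher among all measured genes. The summed scaled signal of the 9 was 139 in mastitis tissue and 1477 in normal tissue. The milk protein genes CSN2, CSN3 and PAEP made up most of the sum in normal tissue, with 413, 475 and 463, against 5.44, 49.1 and 0.78 in mastitis tissue. That sum understates normal tissue, since 1 probe of each of them had saturated pixels there. These genes were 3 of the lower ones, and over their measured probes without saturated pixels CSN2 was between -10.29 and -5.99, CSN3 at -3.41 and PAEP at -8.21. The secretory transcription factor ELF5 was at -2.22, and the milk protein gene LALBA was above background on the array of normal tissue only. The brightest LALBA probe gave 2 in mastitis tissue and 57769 in normal tissue, which is at least 11847-fold lower in mastitis tissue. The keratins and junction genes of epithelium in general stood elsewhere, with KRT8 at 0.36, KRT18 at 0.97, KRT19 at -0.40, EPCAM at 0.12 and CDH1 at 0.38. PIGR thus stood on the side of the secretory genes, at a smaller size than ELF5 and the milk protein genes named, and the part of the secretory cells in its value was not tested.

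The J chain, which PIGR needs on its cargo, did not follow the receptor. JCHAIN had net signals of 3472 and 3997 in mastitis tissue with its 2 probes, against 1835 and 2099 in normal tissue. After scaling these were 16.5 and 19.0 in mastitis tissue and 14.3 and 16.4 in normal tissue, a log2 ratio of 0.21 ± 0.01 (SD, n = 2 probes) or 1.16-fold. Both probes gave the same small ratio, and it lay within the 0.44 SD of probes in general. The ratio of JCHAIN exceeded that of PIGR by 2.11 on the log2 scale, with 1.81 to 2.71 over the pairs of their probes. Because both genes were read on the same arrays, this difference does not depend on a constant scaling factor.

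FCGRT gave the opposite sign to PIGR. Its 3 probes had net signals of 7961, 4810 and 187 in mastitis tissue, against 2847, 1600 and 67 in normal tissue. Scaled, the brightest was 37.9 in mastitis tissue and 22.2 in normal tissue, and the log2 ratios of the probes were 0.77, 0.87 and 0.77 in that order. The mean of 0.80 ± 0.06 (SD, n = 3 probes), 1.74-fold, was exceeded by few genes, since 96.0% of all measured genes lay at or below it. The mark of 2-fold was not reached under the scaling used, while it was passed under quantile normalization (1.06), spike-in scaling (1.04) and no scaling (1.52).

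The difference between both transport receptors was among the widest of the group. The log2 ratio of FCGRT exceeded that of PIGR by 2.70, a 6.52-fold change in the balance of their signals, with 2.37 to 3.37 over the pairs of probes. Across 13 settings of background correction, scaling and probe choice the difference stayed between 2.37 and 2.87. The deposited table was counted only with its rows moved by 1 probe and not as it stands. Settings that only multiply an array by a constant could not alter the difference. It was 2.38 with the normexp background correction and 2.71 with quantile normalization. B2M, the light chain that FCGRT requires, had a ratio of -0.45 ± 0.28 (SD, n = 5 probes), within 2-fold, and it stood above 0 without scaling (0.26), with quantile normalization (0.03) and in the deposited table with its rows moved (0.02).

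**Figure D2:**
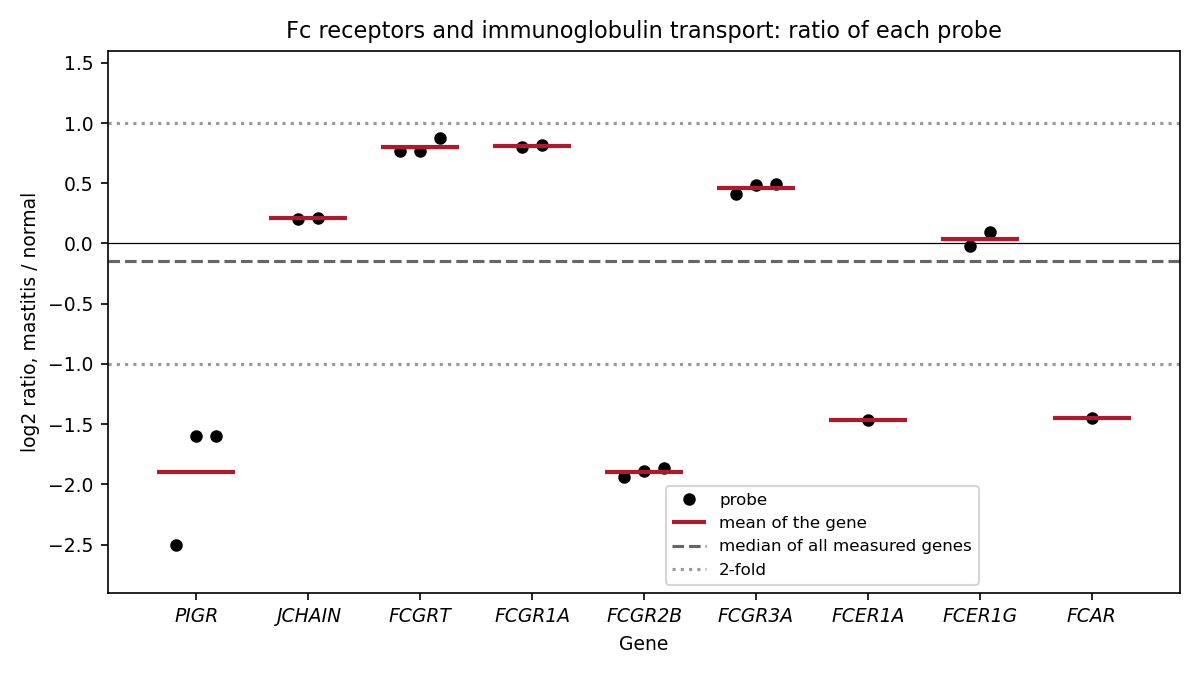
Log2 ratio of mastitis over normal for each of the 20 member probes (black points), with the mean of each gene (red bar), the median of all measured genes at -0.15 (dashed line) and the 2-fold limits (dotted lines). The 3 probes of FCGR2B lie within 0.07 of each other near -1.90, and those of FCGRT and FCGR1A lie just under the upper limit.

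Among the IgG receptors of leukocytes, both activating members had ratios above 0 and the inhibitory member a ratio far below 0. FCGR1A, the high-affinity receptor of monocytes and macrophages, had net signals of 632 and 165 in mastitis tissue against 221 and 57 in normal tissue. These were 3.01 and 0.79 in mastitis tissue and 1.73 and 0.45 in normal tissue after scaling. Its log2 ratio was 0.81 ± 0.01 (SD, n = 2 probes), 1.75-fold and within the mark, and both probes gave nearly the same value.

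FCGR3A, a low-affinity activating receptor of natural killer cells and macrophages, had a smaller ratio of the same sign. Its 3 probes gave net signals of 379, 139 and 124 in mastitis tissue and 165, 60 and 57 in normal tissue. The log2 ratios were 0.49, 0.50 and 0.41, with a mean of 0.46 ± 0.05 (SD, n = 3 probes) or 1.38-fold. The ratio of FCGR3A lay 0.35 below that of FCGR1A, a difference smaller than the 0.44 SD of probes in general.

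FCGR2B, which carries an inhibitory motif in its tail and restrains B cells and phagocytes, was lower in mastitis tissue with all 3 probes. The brightest probe gave 995 in mastitis tissue and 2213 in normal tissue, or 4.74 for mastitis and 17.3 for normal after scaling. The next gave 283 in mastitis tissue and 639 in normal tissue, and the dimmest 12 in mastitis tissue and 28 in normal tissue. The log2 ratios of -1.87, -1.89 and -1.94 averaged -1.90 ± 0.04 (SD, n = 3 probes), 3.73-fold lower. The dimmest probe is close to background and lists FCGR2A besides FCGR2B among its matches, but the brighter probes, which name FCGR2B alone, gave the same value.

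FCGR2B and FCGR3A are next to each other in the RefSeq annotation of the ARS-UCD2.0 assembly, between FCRLA and HSPA6, with FCGR2A beyond HSPA6. Their ratios lay 2.36 apart on the log2 scale, with 2.27 to 2.43 over the pairs of probes, although the genes are neighbours. FCGR1A lay 2.71 above FCGR2B, a 6.54-fold change in the balance of their signals, with 2.67 to 2.76 over the pairs of probes. With the normexp background correction, which draws dim signals together, the differences from FCGR2B were smaller, at 1.57 for FCGR3A and 1.93 for FCGR1A. The order of these 3 receptors was the same under both corrections.

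Markers of several kinds of immune cells were set beside these receptors. For monocytes and macrophages 11 of 13 markers were measured. Of these, 5 were higher by 2-fold or more in mastitis tissue and 0 lower, against 2.29% higher and 9.12% lower among all measured genes. The higher count was 4 with normexp and 7 with quantile normalization. The summed scaled signal was 105 in mastitis tissue and 56.4 in normal tissue. The highest were the scavenger proteins CD5L (3.18) and CD163 (1.76), each from 1 measured probe, and the mannose receptor MRC1 (1.27). CD163 was dim, with 117 in mastitis tissue and 21 in normal tissue. The endotoxin co-receptor CD14 was at -0.77. FCGR1A, at 0.81, was close to the median of these markers, 0.90, and FCGR3A was below it. For natural killer and T cells 11 of 12 markers were measured, all within 2-fold, with a median of 0.03. Their sums were 10.6 in mastitis tissue and 10.1 in normal tissue. The natural killer receptor NCR1 was above background on the array of normal tissue only. Its spot was dim, with 2 in mastitis tissue and 13 in normal tissue, at least 2.67-fold lower in mastitis tissue. NCR1 was the 1 marker of this list without a ratio, and the 11 others lay on both sides of 0, from -0.99 to 0.84.

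For B cells 6 of 8 markers were measured, with a median of -0.40 and a summed scaled signal of 12.03 in mastitis tissue and 14.4 in normal tissue. The kinase BLK was at 1.39, from 1 probe. The B cell surface protein MS4A1 was at -1.17 from a dim probe, with 16 in mastitis tissue and 22 in normal tissue. The other MS4A1 probe pointed the other way, with 35 in mastitis tissue and 9 in normal tissue, where its spot was not found. The direction of MS4A1 is therefore uncertain. The ratio of FCGR2B was lower than that of every measured B cell marker. Neutrophil markers, given below with FCAR, had a median of -1.70. The part of any of these cell types in the values of the IgG receptors was not tested.

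FCER1G, the gamma chain shared by the activating receptors, hardly differed. Its 2 probes gave net signals of 316 and 97 in mastitis tissue and 180 and 60 in normal tissue. Scaled, they were 1.505 and 0.46 in mastitis tissue and 1.41 and 0.47 in normal tissue, with log2 ratios of 0.10 and -0.02. The mean of 0.04 ± 0.08 (SD, n = 2 probes) was 1.03-fold, and 64.2% of all measured genes lay at or below it.

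FCER1A, the chain of the high-affinity IgE receptor that holds the antibody, was lower in mastitis tissue. It was read by 1 probe with a net signal of 22 in mastitis tissue and 37 in normal tissue, or 0.10 for mastitis and 0.29 for normal after scaling, and the log2 ratio was -1.46, 2.76-fold lower. Such a dim spot is imprecise. If both signals were off by 1 SD of the negative controls in opposite directions, the ratio would be between -1.75 and -1.19. With the normexp correction it was -0.75, still negative but within 2-fold. FCER1A and the gamma chain with which it assembles stood 2.83-fold apart in their ratios, and their log2 difference was 0.76 with normexp.

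Mast cells, on which FCER1A is best known, were poorly covered. Of 8 markers 3 were measured, with KIT, the stem cell factor receptor, at 1.64, the histamine-forming enzyme HDC at -0.998 and the prostaglandin synthase HPGDS at -0.18. The HPGDS probe was dim, with 13 in mastitis tissue and 9 in normal tissue. The brightest probe of the tryptase gene TPSB2 gave 13 in mastitis tissue and 22 in normal tissue, but its spot was found on the array of normal tissue only. This dim probe gives a bound of at least 2.78-fold lower in mastitis tissue. The carboxypeptidase CPA3 was not above background on either array. The summed scaled signal of the measured markers was 1.86 in mastitis tissue and 1.02 in normal tissue, with KIT the only one above 0. Their part in the value of FCER1A was not tested.

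FCAR, the IgA receptor, was the dimmest member. Its single probe gave a net signal of 12 in mastitis tissue and 20 in normal tissue, or 0.06 for mastitis and 0.16 for normal after scaling. The log2 ratio was -1.45, 2.73-fold lower, with -2.00 to -0.95 for an error of 1 SD of the negative controls in opposite directions and -0.61 with normexp. Its sign was negative under both background corrections, and its size is known only roughly.

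In humans FCAR is carried by neutrophils among other myeloid cells, and neutrophil markers were low in mastitis tissue. Of 10 markers 7 were measured. Of these, 6 were lower by 2-fold or more and 0 higher, against 9.12% lower and 2.29% higher among all measured genes. The summed scaled signal was 14.9 in mastitis tissue and 40.5 in normal tissue. The lowest were the chemokine receptor CXCR1 (-4.09) and the elastase gene ELANE (-3.56), each from 1 probe, followed by the growth factor receptor CSF3R (-2.26). The CXCR1 probe was assigned by its accession but is described in the files as CXCR2, so which of these receptors it reads is uncertain. That probe gave 8 in mastitis tissue, just above the background limit, and 83 in normal tissue, so the size of its ratio is imprecise. The probe both assigned to and described as CXCR1 gave 1 in mastitis tissue and 3 in normal tissue. Its spot was found on neither array. The peroxidase MPO was not above background on either array. The median of the measured markers was -1.70, near the -1.45 of FCAR. With normexp they were farther apart, the median at -1.36 and FCAR at -0.61. The part of neutrophils in the value of FCAR was not tested.

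**Figure D3:**
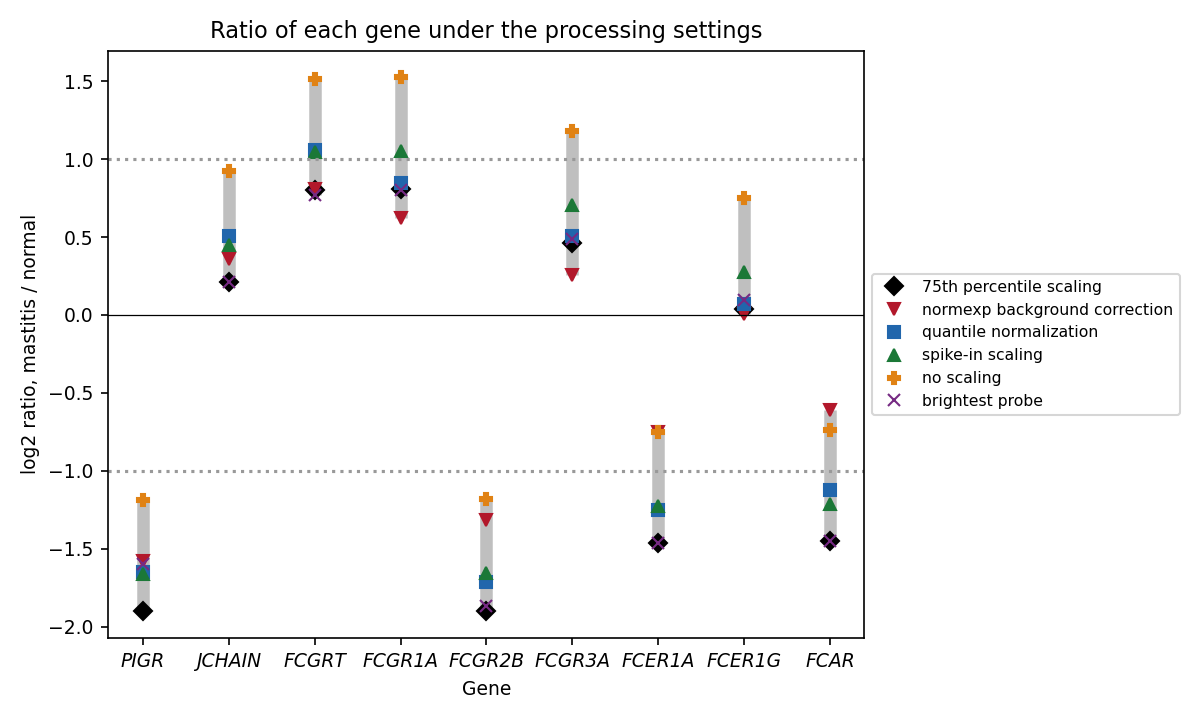
Log2 ratio of mastitis over normal of the 9 genes under 6 of the processing settings (symbols), with a grey bar over all settings that gave a value except the deposited table as it stands, and dotted lines at 2-fold. Every gene keeps its sign wherever it has a value, PIGR stays between -1.90 and -1.19 and FCGR2B between -1.90 and -1.18, while FCER1A and FCAR rise into the 2-fold band with normexp and without scaling.

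The choice of processing moved the sizes. Relative to the scaling used, the median of all genes lay 0.24 higher with spike-in scaling, 0.71 higher without scaling, 0.16 higher with quantile normalization and 0.15 higher with median scaling. Measured from the median of all genes, PIGR was between -1.85 and -1.39 and FCGR2B between -1.83 and -1.12 over these and the other settings. On the same footing FCGRT was between 0.85 and 1.16, FCGR1A between 0.81 and 1.17, FCGR3A between 0.45 and 0.82, JCHAIN between 0.26 and 0.57 and FCER1G between 0.06 and 0.40. The 5 genes above 0 thus also lay above the typical gene and the other 4 below it. This held in every setting that gave a value but the deposited table as it stands. Constant scaling leaves these distances from the median unchanged, so median scaling, spike-in scaling and no scaling could not have altered that result.

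The genes around the members were taken from 6 lists. Of 17 other Fc receptors and Fc-binding proteins, 13 were on the array and 7 were measured, with a median of -0.15, the same as that of all genes. FCGBP, a mucus protein that binds the Fc part of IgG in humans, was at -2.10 with the 1 of its 3 probes above background, which gave 421 in mastitis tissue and 1097 in normal tissue. LGALS3, a lectin that binds IgE among other ligands, was at 1.43, with 2781 in mastitis tissue and 629 in normal tissue. Those 2 genes were past 2-fold, against 9.12% lower and 2.29% higher among all measured genes. FCRLB, an intracellular relative of the Fc receptors, was at -0.67 with B2M next, both within 2-fold.

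Signalling genes that act below the receptors stood near the typical gene. Of 24 listed 23 were measured, 2 were at least 2-fold lower, against 9.12% of all genes, 0 were higher, and their median was -0.18. The lower count was 0 with normexp and at a net signal of at least 50, and 1 with quantile normalization, median scaling, spike-in scaling or no scaling. The lower ones were the docking protein GAB2 (-1.87), from a dim probe with 13 in mastitis tissue and 29 in normal tissue, and the regulatory subunit PIK3R5 (-1.09), from one with 20 in mastitis tissue and 26 in normal tissue. The kinases FGR at -0.97 and BTK at 0.74 followed. The kinases LYN and SYK, which act first at the activating receptors, were at 0.01 and -0.15, near FCER1G.

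The machinery that moves PIGR through the cell had a median of -0.44 over the 13 of 16 genes that were measured. Of these 13, 2 were at least 2-fold lower and 0 higher, against 9.12% lower and 2.29% higher among all measured genes. The lower ones were MYO5B and AP1M2. MYO5B, a motor of recycling vesicles, was at -1.55 ± 0.28 (SD, n = 2 probes). AP1M2, an epithelial adaptor subunit for sorting to the basolateral membrane, was at -1.02 ± 0.19 (SD, n = 2 probes). The small GTPases RAB3D (-0.80) and RAB25 (-0.68) came next and were within 2-fold. RAB3D was read by 1 dim probe, with 16 in mastitis tissue and 17 in normal tissue. The call of AP1M2 was lost with normexp and with quantile, median and spike-in scaling, which left 1 lower gene, and without scaling 0 were left. None of the 13 had a mean ratio as low as that of PIGR, but the order of PIGR and MYO5B depended on the probes. The brighter MYO5B probe, with 209 in mastitis tissue and 427 in normal tissue, was at -1.74. The brighter PIGR probes were at -1.60. Without scaling, which adds 0.71 to every log2 ratio, genes between -0.71 and 0, such as RAB25, FCRLB, B2M, PRLR, NR3C1 and ITGB7, stood above 0.

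Of 17 regulators known to act on PIGR in other settings, mostly from work in human and rodent cells, 12 were measured. Their median was -0.24, and 1 was at least 2-fold lower and 0 higher. Among all measured genes 9.12% were lower and 2.29% higher by that much. The chains of the interferon gamma receptor went apart, with IFNGR2 at -1.23, from 1 probe with 299 in mastitis tissue and 427 in normal tissue, and IFNGR1 at 0.74 ± 0.10 (SD, n = 2 probes). The call of IFNGR2 was lost with normexp, with spike-in scaling and without scaling. The prolactin receptor PRLR was at -0.71 and the glucocorticoid receptor NR3C1 at -0.52 ± 0.48 (SD, n = 4 probes). The lowest NR3C1 probe, at -1.24, was dim, with 9 in mastitis tissue and 13 in normal tissue. The other NR3C1 probes were between -0.32 and -0.23. The NF-kB subunits RELA (0.01) and NFKB1 (-0.22) were within 2-fold.

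JCHAIN can be read beside the plasma cells that make it. Of 25 immunoglobulin and plasma cell genes 17 were measured. Of these, 4 were lower and 1 higher by 2-fold or more, against 9.12% lower and 2.29% higher among all measured genes. The list had a median of -0.42 and a summed scaled signal of 47.2 in mastitis tissue and 74.8 in normal tissue. The lower ones were the elongation factor ELL2 (-2.00 ± 0.54, SD, n = 2 probes), the secretory pathway genes FKBP11 (-1.42) and TXNDC5 (-1.30), and MZB1 (-1.27), a chaperone that helps IgM assembly. The higher one was the survival receptor TNFRSF13C, at 1.001 with probes as far apart as 0.37 and 1.63, and its call was lost with normexp and at a net signal of at least 50. Without scaling 1 of the 4 lower calls was left. JCHAIN, at 0.21, stood on the other side of 0 from the 4 lower genes, of which FKBP11 and TXNDC5 also serve other secreting cells. The 12 listed genes within 2-fold lay on both sides of 0, from -0.96 to 0.81, and JCHAIN lay inside their range.

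For the homing and survival of IgA plasma cells, 12 of 17 genes were measured, with a median of -0.23. Of these, 1 was at least 2-fold higher and 0 lower, against 2.29% higher and 9.12% lower among all measured genes. The chemokine receptor CXCR4 was at 1.04 ± 0.07 (SD, n = 2 probes) and its ligand CXCL12 at 0.90 ± 0.04 (SD, n = 3 probes). The call of CXCR4 was lost with normexp and with the brightest probe alone. CCL28, the epithelial chemokine that draws IgA plasma cells to the mammary gland in mice, was at -0.99 ± 0.08 (SD, n = 2 probes), and the homing integrin chain ITGB7 was at -0.63. CCL28 therefore had the sign of PIGR and CXCL12 that of JCHAIN, all but PIGR within 2-fold.

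**Figure D4:**
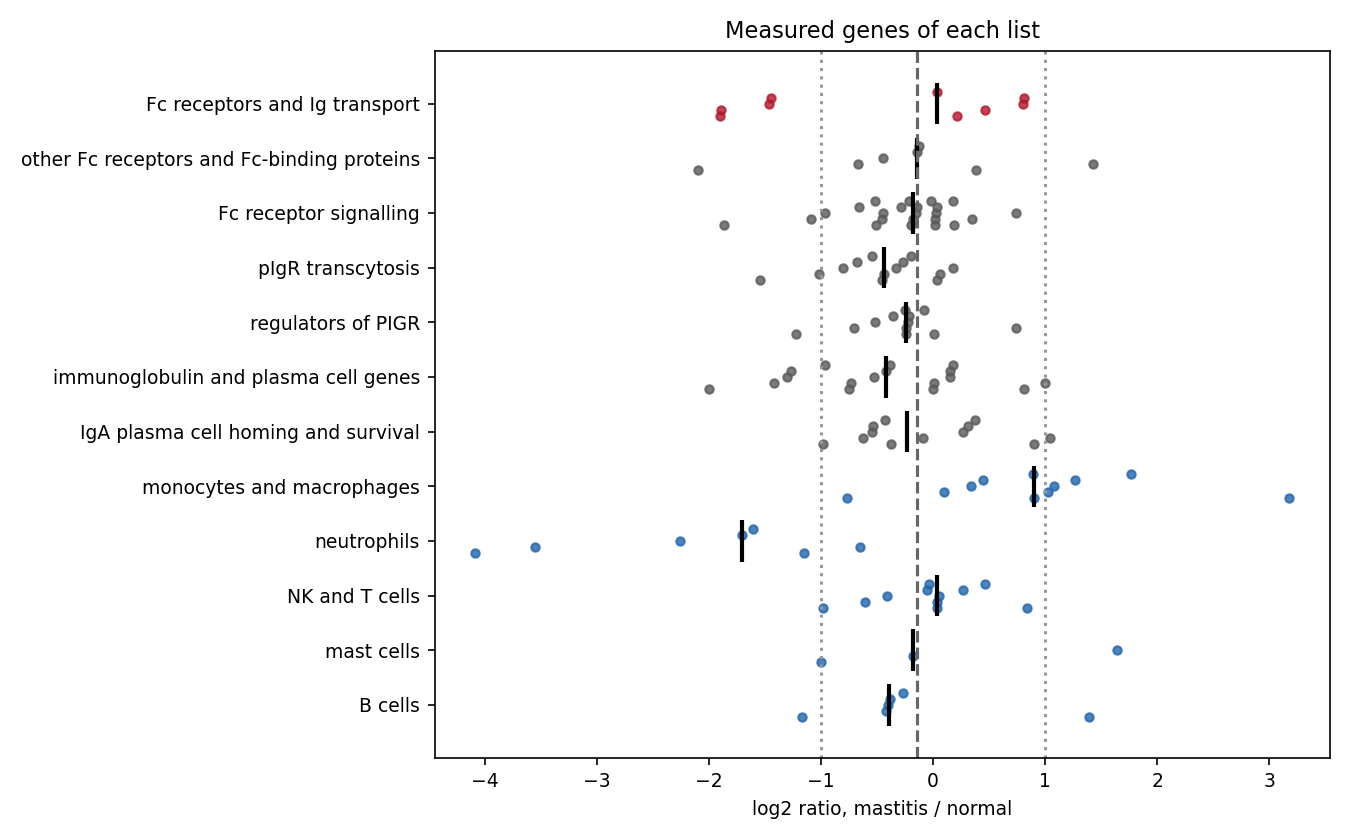
Log2 ratio of mastitis over normal of each measured gene in the Fc receptor and immunoglobulin transport group (red), the 6 lists around it (grey) and the marker lists of immune cells (blue), with black bars at the list medians, a dashed line at the median of all measured genes (-0.15) and dotted lines at 2-fold. The macrophage median lies at 0.90 and the neutrophil median at -1.70, and the members spread to both sides; the markers of milk-secreting cells, which reach far below the axis, are left out.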

How the data were processed

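Mammary tissue was measured in 1 colour on 1 array per condition. The authors deposited the scanner intensity of each spot at 532 nm with 1 constant per array subtracted (by the header a mean of negative controls, for which the files name dark corner spots), the percent of saturated pixels and a flag score, per the file headers read with GenePix Pro 6.1 on Agilent design 023647. Agilent Feature Extraction is named by the submitters' processing notes and an Affymetrix chip by the methods, and the labels and methods name different RNA kits. The authors' deposited log2 table has no stated method, and it matched the scanner signal of the probe 1 row further on (Spearman 0.9998 for mastitis and 0.99996 for normal, against 0.10 and 0.10 with the probe named), so it served only as an alternative. The table's medians were 4.34 (mastitis) and 4.29 (normal), and its centring stays unknown.

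Control spots and probes not above background or not found were omitted, replicate spots averaged, and the signals scaled by the 75th percentile. On the mastitis array 70.2% of 43653 gene probes were above background and on the normal array 67.0%, and 27878 were so on both. Probes were named through RefSeq genes of ARS-UCD2.0, used for names and neighbours only: 26743 by accession, 1819 by accessions among further matches, 5113 by symbol, 138 by synonym and 1388 by the file's own name, and 8452 had no gene. A gene above background on 1 array alone has no ratio, and where it is named its fold is given as a lower bound. The members and the 12 lists were chosen with earlier results of these data known. The text names all members, the 4 genes with the largest ratios per list and chosen markers; LYN, SYK, RELA, NFKB1 and TNFRSF13C were chosen after their values were seen. Some list genes are not reported here. Levels of different probes were not compared, except where a probe or member is called bright or dim. The summed signals of a list add different probes, so the brightest probes weigh most in them. The scripts, tested on simulated data, used Python 3.11.15, numpy 2.4.6, pandas 2.3.3, scipy 1.17.1, matplotlib 3.10.9 and limma 3.58.1 in R 4.3.3 (normexp, offset 50). Alternatives were 12 planned settings, fold thresholds of 1.5 and 3, and 1 setting added after seeing the data, the deposited table with rows moved by 1 probe. The number of arrays limits the precision. No sequences were printed, since none was given in the sources used here.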

Additional observations from a re-analysis of the deposited data

How the results depend on the processing

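Each of the 9 genes kept its sign under every setting that gave it a value, except the deposited table as it stands, in which the values belong to the neighbouring probe. FCER1A and FCAR had no value at a net signal of at least 50, and JCHAIN and FCGR2B none with the files' gene names only. The 4 members at least 2-fold lower became 2 with a threshold of 3-fold, 2 with normexp, 2 without scaling, 2 with a net signal of at least 50, 3 with the files' gene names only and 0 in the deposited table. The members at least 2-fold higher, 0 before, were 2 with a threshold of 1.5-fold, 1 with quantile normalization, 2 with spike-in scaling, 3 without scaling, 1 in the deposited table and 1 in that table with rows moved by 1 probe. The median of the members, 0.04, was 0.75 without scaling. In the deposited table as it stands FCAR was at 2.77, LGALS3 at -0.26, PIK3R5 at 0.81, MYO5B at 0.18 and FKBP11 at 0.24.

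Among all genes, 286 were higher and 1137 lower by 2-fold or more. These counts were 97 and 407 with normexp, 450 and 761 with quantile normalization, 432 and 831 with median scaling, 572 and 732 with spike-in scaling, 2524 and 331 without scaling, 1536 and 1436 in the deposited table, 468 and 793 with its rows moved, 474 and 4149 with no filter on dim probes and 208 and 530 at a net signal of at least 50. Unless the setting itself changes the genes measured, the cause of these changes was not tested. Dim probes limit FCAR and FCER1A most. No paired analysis was possible because each condition has 1 array.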

Other observations

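Immunoglobulin chains, the cargo of the transport receptors, were read by 12 probes that were picked by their description after values had been seen. None of them was for the IgA heavy chain, and no probe on the array was named for it. The IgA that PIGR carries and FCAR binds was therefore not covered by its heavy chain. All 12 probes were above background on both arrays and 11 were within 2-fold. Their log2 ratios were between -1.29 and 0.18 with a median of -0.44, and 2 were above 0. The gamma 1 chain, carried by FCGRT, had a net signal of 1056 in mastitis tissue and 568 in normal tissue, a ratio of 0.18. The mu chain probes, whose product PIGR carries when joined to the J chain, gave -0.51 and -0.19. The kappa chain gave 10136 in mastitis tissue and 9148 in normal tissue, a ratio of -0.57. The epsilon chain, the ligand of FCER1A, was the 1 probe past 2-fold, with 195 in mastitis tissue and 291 in normal tissue, and stood on the same side as its receptor. These probes can bind chains of related sequence, and without scaling 11 of the 12 ratios would lie above 0.

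Several relatives of the members gave no usable ratio. FCGR2A, a neighbour of FCGR2B, had a net signal of 8 on both arrays, and its spot was found on neither. FCAMR, a receptor for IgA and IgM that neighbours PIGR, had 7 in mastitis tissue and 28 in normal tissue, and its spot was not found by the scanner software. The gene LOC407171, an IgG2 receptor of cattle related to FCAR and also chosen after values were seen, had 14 in mastitis tissue and 11 in normal tissue with 1 probe (-0.37) and was not above background with the other.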
